A study of Mus musculus with 6 samples.

Results

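The genes described here are 36 genes of the oxygen-sensing pathway of hypoxia-inducible factor (HIF): its subunits, its oxygen sensors and its target genes other than the core glycolytic enzymes. They were chosen by gene symbol, and all 36 symbols were present among the 23284 in the count tables. Of these, 32 passed the filter on low counts, as did 13039 genes in all. The libraries came from MIN6, a line of mouse insulinoma cells that serves to model beta cells of the pancreas. In 3 libraries the cells had received an antisense oligonucleotide (ASO) against Paupar, a long noncoding RNA transcribed beside the transcription factor gene Pax6, and in the other 3 a control ASO. These groups are called Paupar KD and control KD, for knockdown. Both share the cell line and treatment with an oligonucleotide, and the labels give no untreated cells, no time and no oxygen level. The tables hold no symbol Paupar, and the degree of knockdown could therefore not be read from them.

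HIF is a pair of proteins, an alpha subunit (HIF1A or EPAS1) and ARNT. While oxygen is present, prolyl hydroxylases encoded by the Egln genes mark the alpha subunit, and the von Hippel-Lindau protein (VHL) then directs it to the proteasome. When oxygen is short the alpha subunit persists, and the pair binds a short DNA motif near genes of glucose uptake, lactate export, mitochondrial turnover, blood vessel growth and collagen modification. This control acts on the HIF1A protein, so the Hif1a mRNA need not follow it. In beta cells, loss of VHL is known to activate HIF and to impair glucose-stimulated insulin secretion.

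Most HIF target genes were far lower in Paupar KD replicate 1, lower in replicate 2 and close to the controls in replicate 3. In log2 units, the 32 tested members lay at a median distance from the control mean of -1.30 in Paupar KD replicate 1, -0.62 in replicate 2 and 0.09 in replicate 3, against 0.06, 0.04 and -0.09 in the 3 controls. Over all tested genes these medians lay between 0.00 and 0.01 in every library. At least 1.5-fold below the control mean and below every control were 27 of 32 members in Paupar KD replicate 1 (12.2% of all tested genes), 17 in replicate 2 (5.35%) and 1 in replicate 3 (4.93%). In the opposite direction the same rule took 1 member in replicate 1, Car9, and none in replicates 2 and 3, beside 9.00%, 3.01% and 3.04% of all tested genes.

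**Figure D1:**
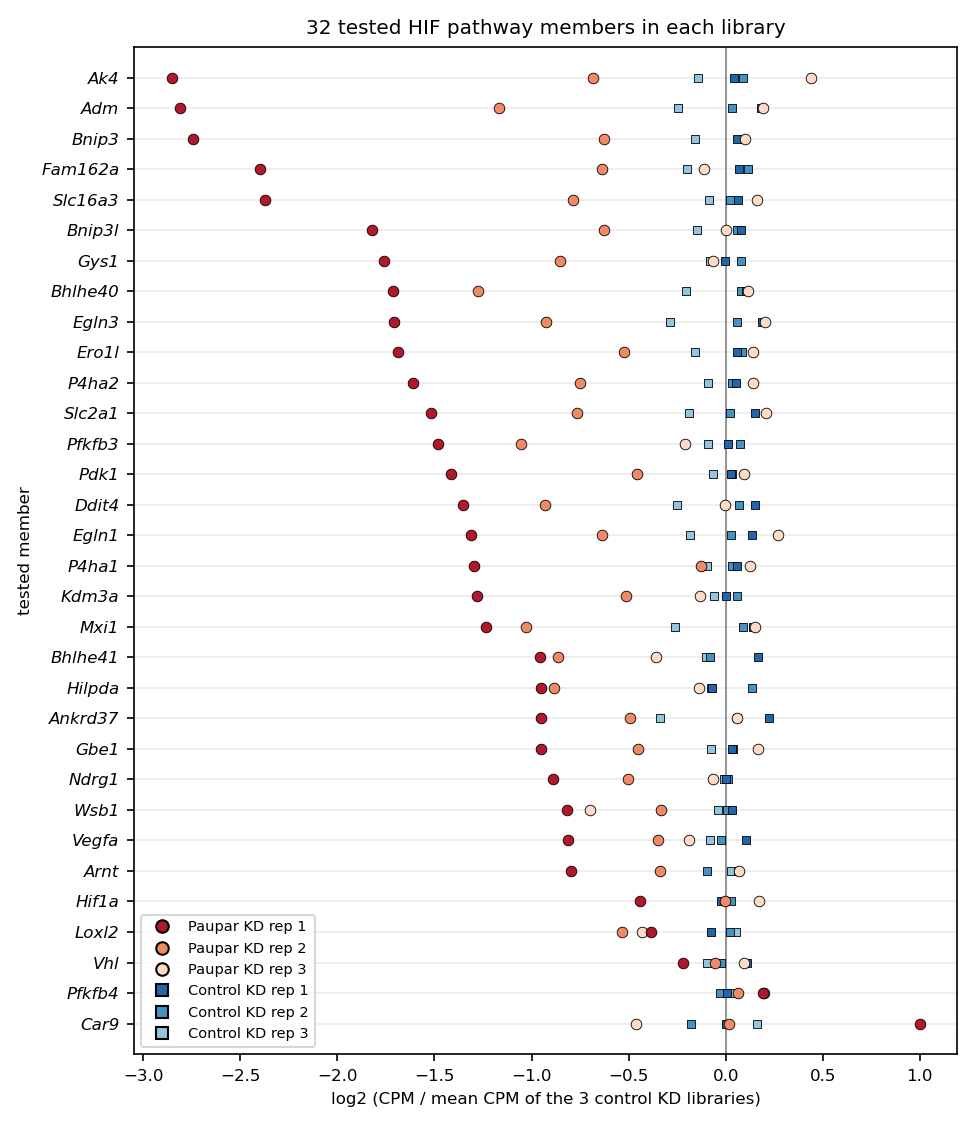
Each row is 1 of the 32 tested members, ordered by its level in Paupar KD replicate 1, and the horizontal axis is the log2 ratio of its CPM in a library to the mean CPM of the 3 control libraries. Circles are the Paupar KD libraries and squares the control KD libraries; the dark red circles of Paupar KD replicate 1 are lowest for Ak4, at 0.14 of the control mean, the orange circles of replicate 2 lie nearer to 0, and the pale circles of replicate 3 lie among or beside the control squares for most members, with Wsb1 the lowest at 0.62.

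As a group of 3 against 3, no member passed the test. With edgeR's quasi-likelihood test over all 13039 genes, 0 of 32 members were called in either direction, beside 6 genes or 0.0460% of all tested genes. At an unadjusted p under 0.05 in the same test, 8 members were lower and 0 higher, beside 1058 lower and 1256 higher among all 13039 tested genes. DESeq2 called 3 members lower, beside 1.72% of the genes to which it gave an adjusted p: Loxl2 (adjusted p = 4.84e-04), Wsb1 (adjusted p = 0.00467) and Bhlhe41 (adjusted p = 0.00816). The spread among the Paupar KD libraries was large for these genes: the median coefficient of variation of a member was 48.9% in Paupar KD and 7.87% in control KD, while over all tested genes it was 14.2% and 5.31%. The count of calls changed with single libraries. When Paupar KD replicate 3 was left out, edgeR called 19 members lower, beside 5.67% of all genes then tested. When replicate 1 was left out, the 1 member called was Loxl2, beside 0.972%. The labels do not say that the replicates are separate cultures, and the spread behind the p-values may be technical.

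Each Paupar KD library was therefore also set by itself against the 3 controls, in an edgeR fit that takes the spread from the controls and assumes that the lone library varies as they do. Such a test compares 1 library with the controls and not the knockdown with the control treatment. In Paupar KD replicate 1, 29 of 32 members were lower at an adjusted p under 0.05 and 0 were higher, beside 25.2% lower and 24.2% higher among all tested genes. Replicate 2 gave 26 members lower and 0 higher, beside 11.3% and 8.92%. Replicate 3 gave 3 lower, namely Loxl2, Wsb1 and Bhlhe41, and 1 higher, Ak4, beside 9.13% and 7.65%, a share of members near the background.

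Total counts were 16973622, 20302121 and 23434166 in Paupar KD replicates 1 to 3 and 22463557, 23624880 and 28693863 in control KD replicates 1 to 3. Among the Paupar KD libraries the order of depth was thus the order of the HIF target levels. Among the controls it was not: control KD replicate 3, the deepest of the 6 libraries, was the lowest of the controls for 27 of 32 members. All 12 beta cell markers had enough counts to be tested, and their summed level came to 68190, 47321 and 47053 CPM (read counts scaled to library size) in Paupar KD replicates 1 to 3, while the 3 controls spanned 42240 to 46365 CPM. Of this, the insulin gene Ins2 stood at 28450, 18601 and 18696 CPM in Paupar KD, against 16348, 17207 and 14430 CPM in control KD. The 12 markers differed among themselves: 9 had a positive and 3 a negative log2 fold change between the groups. In log2 units their medians were 0.17, 0.01 and 0.06 from the control mean. By the 1.5-fold rule 3, namely Ins1, Ins2 and Mafa, were higher and 0 lower in replicate 1, beside 9.00% and 12.2% of all tested genes. Ins1 was at 14318, 6461 and 5239 CPM in Paupar KD, against 6298, 6732 and 5990 CPM in control KD. Mafa was at 670, 260 and 222 CPM in Paupar KD, against 246, 180 and 207 CPM in control KD. The rule took 0 in either direction in replicate 2 (3.01% and 5.35%) and in replicate 3 (3.04% and 4.93%). Neurod1, a beta cell transcription factor gene chosen here after its values were seen, was at 306, 406 and 406 CPM in Paupar KD, against 437, 444 and 426 CPM in control KD. Markers of mesenchymal, endothelial, and delta and PP cells summed to at most 2.48 CPM in any library, with Cdh5 and Emcn at 0 in all 6 libraries. Immune markers summed to 1.53 to 2.15 CPM in Paupar KD and 3.15 to 3.53 CPM in control KD, with Ptprc at 0 throughout. The alpha cell list, nearly all of it Gcg, summed to 127, 67.3 and 44.2 CPM in Paupar KD, with the controls between 70.1 and 79.9 CPM. The acinar and duct list, nearly all of it Spp1, summed to 53.4, 53.2 and 124 CPM in Paupar KD, with the controls between 43.7 and 54.4 CPM. The part of depth, beta cell genes and Gcg in the HIF target levels was not tested. In bulk RNA, fewer cells with a transcript and less of it per cell cannot be told apart.

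Among the factors themselves, Hif1a, which encodes the oxygen-regulated alpha subunit, was at 112, 151 and 171 CPM in Paupar KD replicates 1 to 3, against 149, 155 and 151 CPM in the controls. Replicate 1 was below the controls, replicate 2 among them and replicate 3 above them. The difference of the groups was small beside its error (log2 fold change -0.07 ± 0.15 SE, edgeR adjusted p = 0.832), while replicate 1 alone was 0.74 of the control mean (edgeR adjusted p = 8.59e-05 against the controls). Arnt, the constitutive partner subunit, was at 45.3, 62.3 and 82.4 CPM in Paupar KD, against 82.1, 73.7 and 80.3 CPM in control KD, so replicates 1 and 2 lay below the controls and replicate 3 just above them. Epas1, the other alpha subunit gene, had 0, 2 and 4 counts in Paupar KD and 1, 1 and 5 counts in control KD and was too low to be tested.

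Egln1, the main prolyl hydroxylase gene and itself a HIF target, was at 97.1, 155 and 290 CPM in Paupar KD, against 264, 246 and 212 CPM in control KD. Egln3, a more strongly hypoxia-induced hydroxylase gene, was at 8.79, 15.1 and 33.1 CPM in Paupar KD, against 32.8, 29.9 and 23.5 CPM in control KD. In both genes replicates 1 and 2 were below all controls and replicate 3 was above all of them. Replicate 1 was 2.48-fold lower than the control mean for Egln1 and 3.27-fold lower for Egln3. Vhl, which encodes the substrate-binding part of the ubiquitin ligase and is not a HIF target, varied little: it was at 48.5, 54.5 and 60.3 CPM in Paupar KD, against 61.0, 55.6 and 52.9 CPM in control KD. Its groups overlapped (log2 fold change -0.05 ± 0.11 SE, edgeR adjusted p = 0.827). Egln2, the hydroxylase gene of the family that is no member and was chosen here after its values were seen, was at 100.2, 82.6 and 80.8 CPM in Paupar KD, against 78.3, 75.8 and 76.8 CPM in control KD. All 3 Paupar KD libraries were above the controls, replicate 1 by 1.30-fold (edgeR adjusted p = 3.76e-04), and the groups did not differ at the threshold (edgeR adjusted p = 0.353).

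Of the 3 genes of secreted factors, Vegfa and Adm lay below every control in Paupar KD replicates 1 and 2, by unequal amounts. In replicate 3 both were nearer to the control mean. Vegfa, the vascular endothelial growth factor gene, was at 441, 608 and 681 CPM in Paupar KD, against 833, 762 and 733 CPM in control KD. Every Paupar KD library lay below every control, but the adjusted p missed the threshold (means 577 ± 123 in Paupar KD and 776 ± 51.6 in control KD, SD, n = 3 each; log2 fold change -0.43 with an SE of 0.15; edgeR adjusted p = 0.235). Adm, the gene of the vasodilator peptide adrenomedullin, was at 3.24, 10.1 and 26 CPM in Paupar KD, against 25.8, 23.2 and 19.2 CPM in control KD. Replicate 1 was 7.01-fold lower than the control mean and replicate 2 was 2.25-fold lower, while replicate 3 was level with the highest control. Stc2, which encodes the secreted glycoprotein stanniocalcin 2, was listed at 0 in all 6 libraries.

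Slc2a1, the glucose transporter GLUT1 gene, was at 69.2, 116 and 229 CPM in Paupar KD, against 220, 201 and 174 CPM in control KD. Slc16a3, which encodes the lactate exporter MCT4, was at 88.6, 266 and 513 CPM in Paupar KD, against 479, 465 and 431 CPM in control KD, 5.18-fold lower than the control mean in replicate 1 and 1.72-fold lower in replicate 2 (edgeR adjusted p = 8.76e-11 and 5.63e-06). Of its exonic bases 15.6% overlap Csnk1d on the opposite strand, and the strand setting of the counting is not known. In both transporter genes, replicate 3 was the highest of the 6 libraries. Pdk1, which encodes a kinase that inhibits pyruvate dehydrogenase, was at 139, 271 and 396 CPM in Paupar KD, against 379, 380.2 and 356 CPM in control KD. The Pfkfb genes encode enzymes that set the level of fructose 2,6-bisphosphate, the activator of phosphofructokinase, and the 2 measured here differed. Pfkfb3 was at 106, 143 and 257 CPM in Paupar KD, against 300.3, 313 and 280 CPM in control KD, with no overlap between groups (log2 fold change -0.81 ± 0.28 SE, edgeR adjusted p = 0.223). Pfkfb4 was at 31.7, 29.1 and 31.9 CPM in Paupar KD, against 28.0, 27.2 and 28.3 CPM in control KD, and was the only tested member whose Paupar KD values all lay above the controls (log2 fold change 0.15 ± 0.09 SE, edgeR adjusted p = 0.389). Over all tested genes, 13.7% had every Paupar KD library above every control.

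Bnip3, a receptor for the removal of mitochondria by autophagy, was at 70.8, 308 and 509 CPM in Paupar KD, against 494, 505 and 426 CPM in control KD. Its relative Bnip3l was at 45.9, 105 and 163 CPM in Paupar KD, against 172, 169 and 147 CPM in control KD. Both were below every control in replicates 1 and 2 and within or just above their range in replicate 3. Ak4, the gene of a mitochondrial adenylate kinase, was at 13.3, 59.7 and 130.3 CPM in Paupar KD, against 99, 102 and 86.8 CPM in control KD. It had the widest range of the members: replicate 1 was 7.23-fold lower than the control mean, and replicate 3 was 1.36-fold higher, the only member called higher in a single library (edgeR adjusted p = 0.00209). Fam162a, which encodes a mitochondrial protein induced by hypoxia, was at 45.4, 154 and 221 CPM in Paupar KD, against 250.9, 259 and 208 CPM in control KD. Higd1a, another hypoxia-induced mitochondrial gene, was listed at 0 in all 6 libraries, and whether this comes from the counting was not tested.

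**Figure D2:**
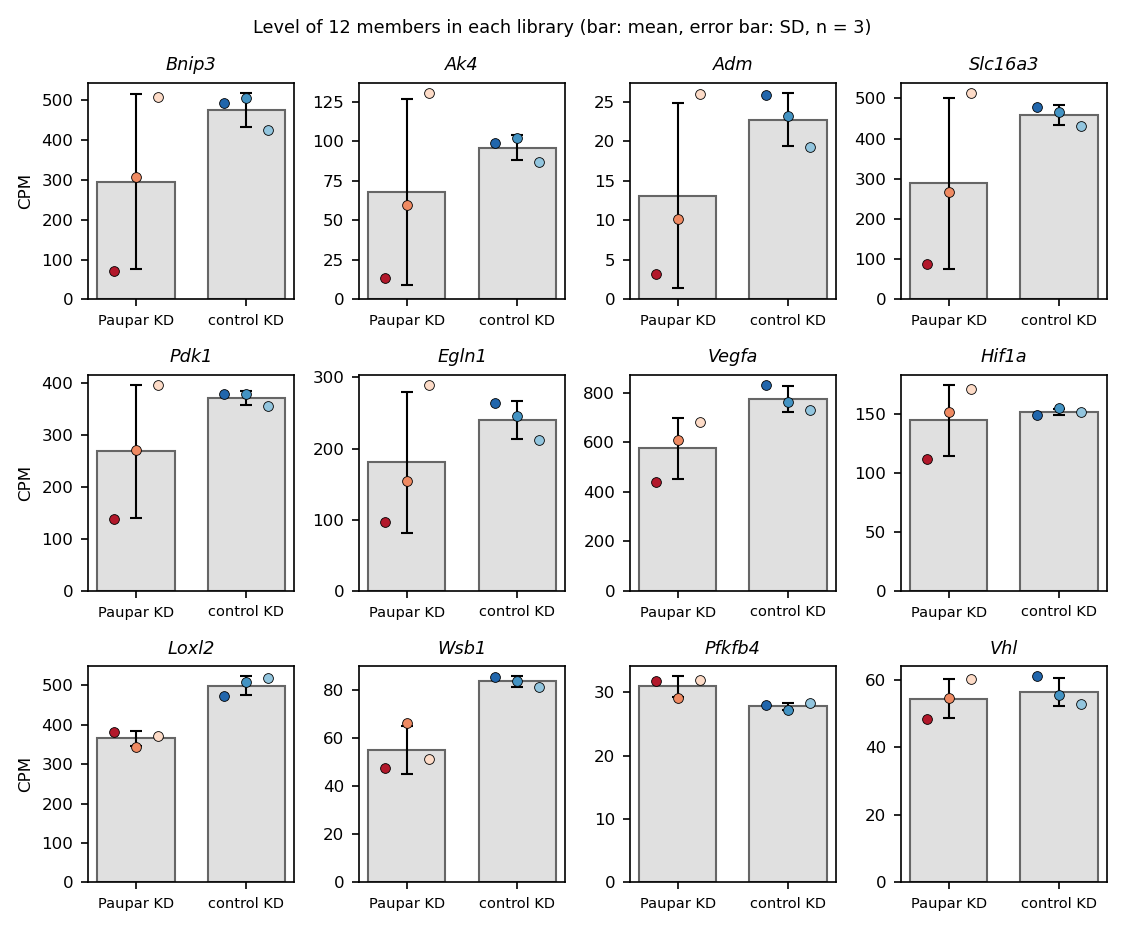
CPM of 12 members in each library. Grey bars are means, error bars the SD over 3 libraries, and circles are replicates 1 to 3 from left to right (dark red to pale in Paupar KD, dark to light blue in control KD); in Bnip3, Ak4, Adm and Slc16a3 replicate 1 is at 3.24 to 88.6 CPM and replicate 3 is at or above the control mean, whereas Loxl2 is at 345 to 383 CPM in all 3 Paupar KD libraries.

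The 2 glycogen genes were both lower in replicates 1 and 2. Gys1, muscle-type glycogen synthase, was at 65.1, 122 and 210.4 CPM in Paupar KD, against 220.1, 233 and 208 CPM in control KD, and 6.47% of its exonic bases overlap Ruvbl2 on the opposite strand. For Gbe1, the glycogen branching enzyme gene, the levels were 30.0, 42.4 and 65.1 CPM in Paupar KD and 59.3, 59.6 and 55.0 CPM in control KD.

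Genes of collagen and disulfide formation were split. P4ha1 and P4ha2 encode the catalytic subunits of the hydroxylase that stabilises collagen. P4ha1 was at 81.7, 184 and 219 CPM in Paupar KD, against 208, 205 and 188 CPM in control KD, far below the controls in replicate 1, just below the lowest of them in replicate 2 and above them in replicate 3. P4ha2 was at 63.9, 116 and 215 CPM in Paupar KD, against 203, 200 and 184 CPM in control KD. Ero1l, the oxidase that drives disulfide bond formation in the endoplasmic reticulum, was at 116, 259 and 411 CPM in Paupar KD, against 389, 396 and 335 CPM in control KD. Loxl2, a collagen cross-linking oxidase gene, did not share this order: it was at 383, 345 and 370.0 CPM in Paupar KD, against 473, 507 and 518 CPM in control KD. All 3 Paupar KD libraries were alike and below every control (means 366 ± 19.4 in Paupar KD and 499 ± 23.3 in control KD, SD, n = 3 each; log2 fold change -0.45 with an SE of 0.09; edgeR adjusted p = 0.101, the smallest of any member).

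Bhlhe40, Bhlhe41, Mxi1, Kdm3a and Ankrd37, transcriptional and chromatin targets of HIF, lay below every control in Paupar KD replicates 1 and 2. Bhlhe40 and Bhlhe41 encode related repressors that also take part in the circadian clock. Bhlhe40 was at 29.5, 39.9 and 105 CPM in Paupar KD, against 104, 102 and 83.8 CPM in control KD, and its ratio to the control mean in replicate 2, 0.41, was the lowest of any tested member there. Bhlhe41 was at 46.8, 49.99 and 71.0 CPM in Paupar KD, against 102, 86.0 and 84.6 CPM in control KD, with no overlap between groups (log2 fold change -0.70 ± 0.16 SE, edgeR adjusted p = 0.143). Mxi1, a MAX partner that opposes MYC, was at 23.0, 26.6 and 60.2 CPM in Paupar KD, against 59.7, 57.6 and 45.2 CPM in control KD. Here replicates 1 and 2 were close to each other and far from replicate 3. Kdm3a, a histone H3 lysine demethylase gene, was at 90.4, 154 and 201 CPM in Paupar KD, against 220, 229 and 211 CPM in control KD. Ankrd37, a small ankyrin repeat gene, was at 20.6, 28.3 and 41.5 CPM in Paupar KD, against 46.6, 41.6 and 31.6 CPM in control KD, and 24.9% of its exonic bases overlap a gene on the opposite strand, so its reads are not certain to be its own.

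Stress and growth-control members were also mixed. Ddit4, the gene of the mTORC1 inhibitor REDD1, was at 65.1, 87.3 and 166 CPM in Paupar KD, against 185, 175 and 140.1 CPM in control KD. Ndrg1, a stress-induced growth-control gene, was at 154, 202 and 274 CPM in Paupar KD, against 286, 289 and 284 CPM in control KD, with all Paupar KD libraries below the controls. Hilpda, which encodes a lipid droplet protein, was low throughout, at 3.36, 3.52 and 5.92 CPM in Paupar KD, against 6.2, 7.15 and 6.18 CPM in control KD. Wsb1, which encodes a substrate adaptor of a ubiquitin ligase, was at 47.4, 66.5 and 51.5 CPM in Paupar KD, against 85.6, 84.0 and 81.3 CPM in control KD. It was the only member at least 1.5-fold lower in replicate 3, and there the highest Paupar KD library was replicate 2 (log2 fold change -0.60 ± 0.13 SE, edgeR adjusted p = 0.127). The 2 carbonic anhydrase genes, whose enzymes regulate pH at the cell surface, had few counts: Car9 had 9 to 18 in Paupar KD and 11 to 17 in control KD, and Car12 had 7 to 12 in Paupar KD and 2 to 9 in control KD and was not tested.

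Across the members, 28 of 32 had replicate 1 lowest, replicate 2 between and replicate 3 highest among the Paupar KD libraries, 87.5% beside 25.5% of all tested genes. The 4 exceptions were Loxl2, Wsb1, Pfkfb4 and Car9. Every Paupar KD value lay below every control value for 8 members (13.3% of all tested genes), namely Vegfa, Ndrg1, Kdm3a, Bhlhe41, Pfkfb3, Loxl2, Wsb1 and Hilpda, and above every control value for 1, Pfkfb4. Replicate 3 was above every control for 17 members, within their range for 6 and below it for 9, beside 37.3% of all tested genes above and 34.8% below. A smaller spread in the same genes was present among the controls: control KD replicate 3 was the lowest control for 84.4% of the tested members and for 35.9% of all tested genes, and the members' median there was -0.09 in log2 units.

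Levels per length, computed from the merged exons of each gene in the GENCODE M1 annotation, give the order of the members in these cells. In CPM per kilobase, Fam162a stood highest, at 221 in Paupar KD and 377 ± 43.2 in control KD, followed by Bnip3 (131 in Paupar KD and 210 ± 18.9 in control KD) and Vegfa (134 in Paupar KD and 181 ± 12 in control KD; means of 3 libraries, SD given for control KD). By these means Bnip3 and Vegfa were in 1 order in control KD and in the opposite order in Paupar KD. Their control levels lie within the sum of their SDs. The Paupar KD means average unlike libraries, so the order of these means need not hold in each of them. Before division by length, Bnip3 was at 70.8, 308 and 509 CPM in Paupar KD replicates 1 to 3, and Vegfa at 441, 608 and 681 CPM. The Fam162a model spans only 635 exonic bases. Car9, at 0.29 in Paupar KD and 0.23 ± 0.03 in control KD, was the lowest of the tested members that have a gene model of that name.

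Other genes of the pathway were listed by role, as further targets and as regulators of HIF. Cited2 is in both lists and counts in each among the genes at least 1.5-fold lower in replicate 1. Of 27 further reported HIF targets 18 were tested, and 0 passed in the comparison of the groups. By the 1.5-fold rule used above, 11 of these 18 were lower in Paupar KD replicate 1 (12.2% of all tested genes), 5 in replicate 2 (5.35%) and 0 in replicate 3 (4.93%). In the opposite direction the rule took 1, 0 and 0 of them (9.00%, 3.01% and 3.04%). In log2 units the 18 genes lay at a median of -0.85, -0.36 and 0.06 from the control mean. Plod2, a procollagen lysyl hydroxylase gene, was at 59.0, 142 and 194 CPM in Paupar KD, against 210, 215 and 199 CPM in control KD. Plod1, its relative with the smallest p of the list, was at 48.9, 67.7 and 92 CPM in Paupar KD, against 99.6, 104 and 101 CPM in control KD (edgeR adjusted p = 0.237). Levels of Rora, a nuclear receptor gene, were 5.78, 7.68 and 18.3 CPM in Paupar KD and 16.7, 15.0 and 15.8 CPM in control KD. Hmox1, the heme oxygenase gene, stood at 46.6, 50.1 and 93.8 CPM in Paupar KD, against 84.1, 89.5 and 85.2 CPM in control KD. Ccng2, a cyclin G gene, was at 26.7, 30.9 and 46.9 CPM in Paupar KD, against 50.5, 53.4 and 41.5 CPM in control KD.

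Genes that regulate HIF had medians near 0. All 16 were tested, 0 passed in the comparison of the groups, and in log2 units they lay at a median of -0.11, 0.02 and -0.03 from the control mean in the successive Paupar KD libraries. By the 1.5-fold rule used above, 4 were lower and 1 higher in replicate 1, beside 12.2% and 9.00% of all tested genes. In replicate 2 the rule took 1 lower and 0 higher (5.35% and 3.01%), and in replicate 3 it took 0 and 0 (4.93% and 3.04%). The coactivator genes Ep300 and Crebbp were low in replicate 1: Ep300 was at 66.5, 95.4 and 106 CPM in Paupar KD, against 110, 109 and 119 CPM in control KD, and Crebbp at 41.3, 60.2 and 59.3 CPM in Paupar KD, against 65.5, 61.4 and 72.3 CPM in control KD. Cited2, which competes with HIF for these coactivators and is itself a HIF target, was at 36.4, 59.5 and 63.3 CPM in Paupar KD, against 73.3, 61.4 and 62.9 CPM in control KD. Tceb2, which encodes the elongin B subunit of the VHL complex, had the smallest p of the list, at 94.2, 79.7 and 81.4 CPM in Paupar KD, against 66.5, 70.2 and 60.5 CPM in control KD (edgeR adjusted p = 0.162). The chaperone gene Hsp90ab1 was at 1911, 2164 and 2315 CPM in Paupar KD, against 2712, 2737 and 2585 CPM in control KD, with no overlap (edgeR adjusted p = 0.182), while its relative Hsp90aa1 was at 332, 458 and 415 CPM in Paupar KD, against 377, 379 and 383 CPM in control KD. P4htm, a transmembrane prolyl hydroxylase gene, ran against the order of the targets, at 38.1, 27.1 and 18.8 CPM in Paupar KD, against 25.6, 23.5 and 23.0 CPM in control KD. Arnt2, a relative of Arnt, was at 65.8, 58.3 and 67.5 CPM in Paupar KD, against 55.5, 56.9 and 55.2 CPM in control KD.

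The core glycolytic enzymes, which include HIF targets of long standing, gave the same order, with medians of -0.93, -0.48 and 0.04 over 16 tested genes in Paupar KD replicates 1 to 3. These include Gapdh, at only 4.08 to 10.5 CPM over the 6 libraries, and Eno1, at 0.18 to 1.01 CPM. The reason for such low counts was not tested. Ldha, the lactate dehydrogenase A gene, was at 66.3, 407 and 823 CPM in Paupar KD, against 652, 666 and 578 CPM in control KD. All these comparisons share the same 3 control libraries, and no test of a difference between the lists was made.

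**Figure D3:**
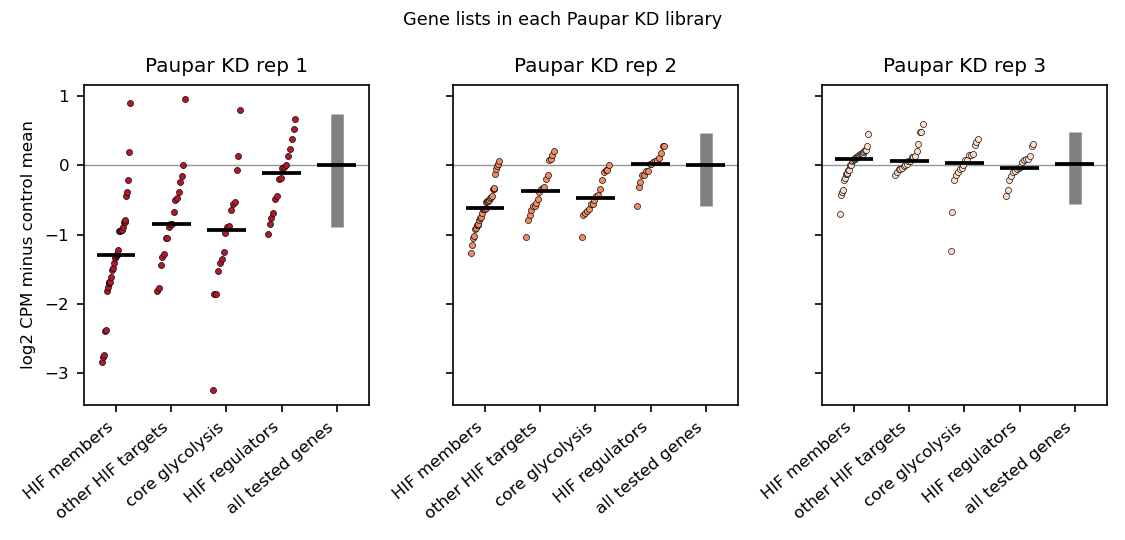
Log2 CPM minus the mean of the 3 controls (vertical axis) in each Paupar KD library for the tested genes of 4 lists, with 1 circle per gene and a black line at the median; for all tested genes the grey bar spans the 5th to the 95th percentile. The median of the HIF members is -1.30 in replicate 1, -0.62 in replicate 2 and 0.09 in replicate 3, while that of the HIF regulators stays between -0.11 and 0.02.

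Promoter sequence was examined because most members were low in the same libraries. RefSeq promoter windows of 300 bases, from 250 before to 50 after an annotated start, were available for 31 members (43 windows, build GRCm38.p6). The core of the HIF response element, ACGTG, was searched on both strands, so that the palindrome CACGTG counts as 2 overlapping matches. It was found in a window of 21 of 31 members, 67.7%, against 29.4% of 9302 tested genes and 21.8% of all 27025 genes with a window. Counted by window, the shares were 53.5%, 25.2% and 19.6%. The 31 include members that were not tested. Most members were listed because they are reported HIF targets, so a high share can follow from that choice and says nothing about these libraries. GCGTG, the other form of the core, was found for 71.0% of members, 56.4% of tested genes and 35.2% of all genes. Member windows were richer in G and C (median 64.3%) than those of tested genes (60.7%) and of all genes (52.7%), and the part of base composition in these shares was not tested. Of the 24 members with a window that were at least 1.5-fold lower in Paupar KD replicate 1, 18 held ACGTG, as did 2 of the other 4 tested members.

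The windows of the 5 members with the lowest ratios in replicate 1 follow here, with that of Pfkfb4, which was not lower in any library, beside them. Each was matched exactly and once to the NCBIM37 assembly, the assembly called mm9, and is written 5′ to 3′ on the strand of the gene with ACGTG, on either strand, in capitals. Ak4 is at chr4:101092058-101092357 (plus strand, the start farthest downstream of its 4 and the only one whose window holds ACGTG), Adm at chr7:117770921-117771220 (plus), Bnip3 at chr7:146101140-146101439 (minus), Fam162a at chr16:36071598-36071897 (minus), Slc16a3 at chr11:120810131-120810430 (plus) and Pfkfb4 at chr9:108893697-108893996 (plus).
Ak4: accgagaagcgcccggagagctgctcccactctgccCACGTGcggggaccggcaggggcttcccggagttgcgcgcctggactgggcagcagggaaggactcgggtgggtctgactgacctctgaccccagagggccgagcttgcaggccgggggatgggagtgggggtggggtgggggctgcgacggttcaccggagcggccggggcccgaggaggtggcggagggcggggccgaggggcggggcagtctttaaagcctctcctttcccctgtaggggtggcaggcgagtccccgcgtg
Adm: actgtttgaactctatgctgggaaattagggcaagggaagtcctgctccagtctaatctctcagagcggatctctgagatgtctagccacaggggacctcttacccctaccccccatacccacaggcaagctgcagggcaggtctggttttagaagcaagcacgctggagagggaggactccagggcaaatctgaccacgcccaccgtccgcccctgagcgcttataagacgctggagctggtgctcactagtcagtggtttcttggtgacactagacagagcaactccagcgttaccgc
Bnip3: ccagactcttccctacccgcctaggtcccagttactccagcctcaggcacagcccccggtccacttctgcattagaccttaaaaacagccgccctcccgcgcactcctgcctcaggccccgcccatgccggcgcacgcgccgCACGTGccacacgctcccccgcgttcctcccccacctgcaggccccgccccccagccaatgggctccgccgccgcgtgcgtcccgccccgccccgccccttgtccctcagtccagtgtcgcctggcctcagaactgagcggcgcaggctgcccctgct
Fam162a: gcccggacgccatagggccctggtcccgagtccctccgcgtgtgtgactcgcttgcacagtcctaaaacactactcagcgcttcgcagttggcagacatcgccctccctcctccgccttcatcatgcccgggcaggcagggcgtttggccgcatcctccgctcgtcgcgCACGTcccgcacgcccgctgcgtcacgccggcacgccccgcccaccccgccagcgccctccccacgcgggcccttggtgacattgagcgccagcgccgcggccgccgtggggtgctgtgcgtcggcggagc
Slc16a3: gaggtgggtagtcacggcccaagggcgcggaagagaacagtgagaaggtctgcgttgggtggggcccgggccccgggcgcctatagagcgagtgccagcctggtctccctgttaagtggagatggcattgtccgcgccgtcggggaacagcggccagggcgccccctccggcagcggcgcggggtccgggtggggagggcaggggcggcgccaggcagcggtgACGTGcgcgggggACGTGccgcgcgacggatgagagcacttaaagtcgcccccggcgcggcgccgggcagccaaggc
Pfkfb4: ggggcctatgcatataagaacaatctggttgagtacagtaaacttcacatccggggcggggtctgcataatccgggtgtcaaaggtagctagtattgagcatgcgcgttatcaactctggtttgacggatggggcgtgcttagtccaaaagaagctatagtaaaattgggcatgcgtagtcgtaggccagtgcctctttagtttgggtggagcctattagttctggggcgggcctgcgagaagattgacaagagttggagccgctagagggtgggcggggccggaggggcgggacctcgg
The Bnip3 window held the palindrome at position -108 from the start, and Slc16a3 held 2 separate cores, at -27 and -14. Neither Adm nor Pfkfb4 held ACGTG, which may lie outside these 300 bases. The other form of the core, GCGTG, is not marked, and it was found at 2 places for Adm and at 1 for Pfkfb4.

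Shorter stretches show the cores of a repressor, a glucose transporter, a sensor, the alpha subunit and a member that was low in every Paupar KD library. They lie at chr6:145814068-145814113 (Bhlhe41, minus), chr4:118781294-118781338 (Slc2a1, plus), chr8:127473198-127473242 (Egln1, minus), chr12:75008699-75008744 (Hif1a, plus) and chr11:79068355-79068436 (Wsb1, minus) of NCBIM37, with ACGTG on either strand in capitals.
Bhlhe41: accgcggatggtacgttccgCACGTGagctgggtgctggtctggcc
Slc2a1: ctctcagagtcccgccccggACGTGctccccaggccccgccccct
Egln1: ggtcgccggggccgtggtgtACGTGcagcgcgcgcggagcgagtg
Hif1a: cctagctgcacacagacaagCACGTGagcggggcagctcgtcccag
Wsb1: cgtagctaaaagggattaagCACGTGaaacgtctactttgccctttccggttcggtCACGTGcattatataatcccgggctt
Bhlhe41, Hif1a and Wsb1 held the palindrome, and Wsb1 held it at 2 places here. Replicate 1 was at 0.74 of the control mean for Hif1a, 0.57 for Wsb1 and 0.51 for Bhlhe41, against 0.15 for Bnip3 and 0.14 for Adm, which holds GCGTG at 2 places but no ACGTG. Among these named genes the sizes of difference were unequal, and a relation of size to the motif was not tested.

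**Figure D4:**
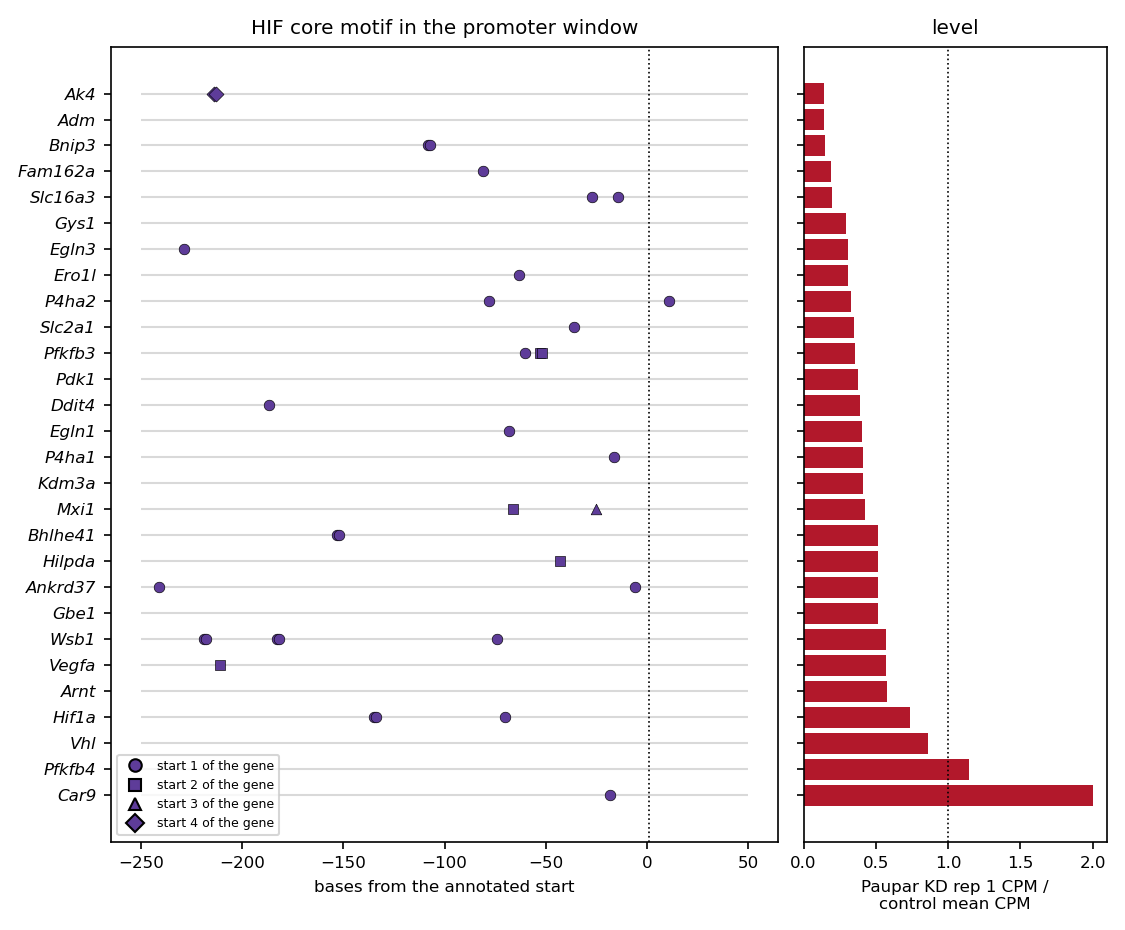
Left, positions of ACGTG, on either strand, in the promoter windows of 28 tested members, as bases from the annotated start (vertical dotted line), with marker shapes for alternative starts of a gene; right, CPM in Paupar KD replicate 1 divided by the control mean. Members run from the lowest ratio, 0.14 for Ak4, at the top to the highest, 2.0 for Car9, which rests on 18 counts, and rows with and without ACGTG are found over most of that range.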

How the data were processed

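Per the labels, RNA from 6 MIN6 libraries, 3 Paupar KD and 3 control KD, was sequenced. The deposited values are raw read counts per gene symbol. The submitters' processing notes name CASAVA 1.8.2, HISAT2, HTSeq, DESeq2 and mm9. Which of them did what, with which annotation and strand setting, is not given in those sources.

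From the counts, genes were kept with filterByExpr (minimum count 10), scaled by TMM and tested with edgeR 4.0.16 in R 4.3.3 (quasi-likelihood test, robust, Benjamini-Hochberg over 13039 genes, threshold 0.05), first 3 against 3 and then each Paupar KD library against the 3 controls. CPM are counts scaled to the effective library size. Log2 differences used log2 CPM with a prior count of 2. DESeq2 1.42.0, limma 3.58.1 (voom), other scalings and filters, a replicate block and leaving out each library were alternatives. The scripts were tested on simulated data. The members and gene lists were chosen with earlier results of these data known. All 36 members could be named, other pathway genes by smallest p and by the 3 largest differences per library at a control mean of at least 5 CPM, and outside the lists the 5 genes most like the median member. Promoters are those of RefSeq (GRCm38.p6), matched exactly to NCBIM37, and exon lengths come from GENCODE M1. The counts of separate library pairs differed beyond sampling noise, so each was kept as 1 replicate. Total counts of 16973622 to 28693863 per library limit the precision of genes with few counts. Some genes that the naming rule takes are not reported here.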

Additional observations from a re-analysis of the deposited data

How the results depend on the processing

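The comparison of the groups called 0 members lower. This stayed at 0 with other scaling factors, other low-count filters, no robust estimation and limma-voom, whereas DESeq2 called 3, and leaving out 1 library gave 0 to 19, the highest without Paupar KD replicate 3. For the other pathway genes the same leave-outs gave 0 to 8 lower. Without Paupar KD replicate 3, where both counts were highest, 5.67% of all genes then tested were called lower. With replicate number as a block edgeR called 0 members. Same-numbered libraries did not deviate together (correlations 0.07, -0.01 and 0.01). With 3 libraries per group this cannot settle whether equal numbers share a culture or day, which the labels do not say.

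By library, Paupar KD replicate 1 had 0 members higher, and 1 with upper-quartile factors, with no low-count filter or with limma-voom. Leaving out a control gave 0 to 1. Replicate 3 had 1 higher and 3 lower, and 3 higher and 5 lower with no low-count filter. Leaving out a control gave 1 to 3 higher and 3 to 7 lower. At least 1.5-fold higher in replicate 1 were 0 members with a mean CPM of at least 1, which drops Car9. Signs turned for genes near 0 when a library was left out: log2 fold changes ran between -0.20 and 0.080 for Hif1a (positive when Paupar KD replicate 1 was omitted), between -0.13 and 0.018 for Vhl (positive when Paupar KD replicate 1 was omitted, and 0.0057 when control KD replicate 1 was) and between -0.23 and 0.54 for Car9 (negative when Paupar KD replicate 1 was omitted). The cause of these changes was not tested. Epas1, Car12, Stc2 and Higd1a had too few counts for a test, and Car9 and Hilpda have few. Counts of 0 for Stc2 and Higd1a do not show absent transcripts, since the annotation and counting settings are not known.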

Other observations

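Outside the pathway lists, 5 genes followed the median member most closely over the 6 libraries, given by Pearson's r of log2 CPM as a description, since the libraries share their groups. Rab3gap1 was at 82.3, 94.3 and 104 CPM in Paupar KD replicates 1 to 3, against 104, 104 and 101 CPM in control KD (r = 0.999). A930001N09Rik was at 19.5, 43.6 and 72.7 CPM in Paupar KD, against 74.0, 69.7 and 62.0 CPM in control KD (r = 0.999). Both were lowest in Paupar KD replicate 1, but by unequal amounts. Ghitm, a mitochondrial inner membrane gene, was at 186, 278 and 354 CPM in Paupar KD, against 352, 361 and 328 CPM in control KD (r = 0.998). Suv420h1, a histone H4 lysine methyltransferase gene, was at 75.2, 91.3 and 101 CPM in Paupar KD, against 101, 101 and 97.5 CPM in control KD (r = 0.998). Selenbp1, a selenium-binding protein gene, was at 1.42, 5.48 and 11.9 CPM in Paupar KD, against 13.6, 11.1 and 10.3 CPM in control KD (r = 0.997).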
